A study of Sus scrofa with 2 samples.

Results

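Cytokines, chemokines, their receptors and the CD antigens were examined in the longissimus dorsi muscle (LM) of Shaziling and Yorkshire pigs. The genes were chosen by name. A unigene, which is a transcript assembled from the reads without a genome, was taken when its protein match belonged to a pig gene whose symbol begins with IL, CCL, CCR, CXCL, CXCR, TLR, TNFSF, TNFRSF or CD and a number, or with IFN or SLA-. CD36 and the cell cycle genes named CDC or CDK were left out. This gave 80 unigenes for 69 genes, of 4484 genes with a symbol and 65535 unigenes in the table. The unigene with the highest mean RPKM (reads per kb of unigene, relative to the size of the library) stands for its gene. The pig annotation holds 294 protein-coding genes with such symbols, so most of the family was not met among the named unigenes, and 0 of 7 SLA class I genes were found in this way.

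The muscle was taken at slaughter from males aged 25 days, full sibs within a breed: 3 Shaziling pigs (an indigenous Chinese breed) and 3 Yorkshire pigs (a lean breed), with no treatment. The table gives 1 column of reads per breed, whose name lists 3 animals, and whether their RNA was pooled before sequencing is not given in the sources used here. Each breed is therefore 1 library, differences have no replicate check, and breed cannot be told apart from litter. A further field of the sample records swaps the classes of the breeds (indigenous and lean), and the titles and column names were followed instead.

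Cytokines and chemokines are secreted proteins by which cells call, activate or restrain immune cells, and each acts through receptors on the surface of the target cell. Interferons induce antiviral genes, Toll-like receptors sense microbial products, and SLA molecules are the pig's major histocompatibility antigens, which present peptides to T cells. CD antigens are surface proteins catalogued by antibody typing. In muscle these genes are used by resident macrophages, vessels and connective tissue, and some of them by the muscle fibres themselves.

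The library totals were 33949238 reads for Yorkshire and 28305925 for Shaziling, of which 87.0% and 72.7% lie in the table. The 69 genes took 0.0532% of all Yorkshire reads and 0.0825% of all Shaziling reads, so they are a small part of both libraries. A gene was called when its RPKM ratio was 2 or more and its adjusted p was 0.05 or less in an exact binomial test of its reads (two-sided), with Benjamini-Hochberg adjustment over all unigenes. This test compares 2 libraries and not the breeds. Intervals on ratios are exact 95% intervals and cover counting error only.

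In the RPKM values as deposited, 34 of the 69 genes (49.3%) were called higher in Shaziling, 0 were called higher in Yorkshire and 35 were not called. Among all genes with a symbol, 35.3% were called higher in Shaziling and 3.17% higher in Yorkshire, and among all unigenes 24.1% and 7.08%. Calls among the named genes thus lay mostly on the Shaziling side in these values. The RPKM was higher in Shaziling for 59 of the 69 genes (85.5%), against 75.4% of the genes with a symbol. The median difference in log2(RPKM + 1), Shaziling minus Yorkshire, was 0.62 for the immune genes and 0.47 for the genes with a symbol. Below the ratio of 2, another 7 immune genes passed the adjusted p on the Shaziling side, and 2, CD164 and CD34, passed it on the Yorkshire side.

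These counts depend on how the libraries are scaled. The 2 mitochondrial unigenes took 46.4% of all Yorkshire reads and 11.8% of all Shaziling reads, and RPKM values are relative to these totals. The 4 other scalings tried shift all log2 ratios down together, by 0.35 to 0.72. With the median log2 ratio of abundant unigenes at 0, 24 immune genes were called higher in Shaziling and 0 in Yorkshire (34.8% and 0%, against 25.1% and 6.94% of the genes with a symbol). With the same RPKM sum per library, 20 and 0 were called (29.0% and 0%, against 23.2% and 8.01% of the genes with a symbol). TMM also gave 20 and 0 (29.0% and 0%, against 23.1% and 8.10%). With the mitochondrial unigenes left out of the totals, 16 were called higher in Shaziling and 1, CD34, in Yorkshire (23.2% and 1.45%, against 17.2% and 14.9%). The 16 genes called under each of the 5 scalings are CCL24, CCL26, CD1.1, CD63, CD82, CD99L2, CXCR4, IFN-OMEGA-3, IL10RA, IL15RA, IL18BP, IL27RA, IL6R, SLA-DMB, TNFRSF12A and TNFRSF19. They are those with the larger ratios and enough reads, since the scalings differ by a constant. Of the other genes called as deposited, 10 lost their call under all 4 other scalings (CCL3L1, CD248, CD300C, CD46, CD52, CD74, CXCL9, IFN-DELTA-11, IFNAR2 and IL10RB) and 8 under some of them. The RPKM was higher in Yorkshire for 10 of the 69 genes as deposited and for 22 to 28 under the other scalings.

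**Figure D1:**
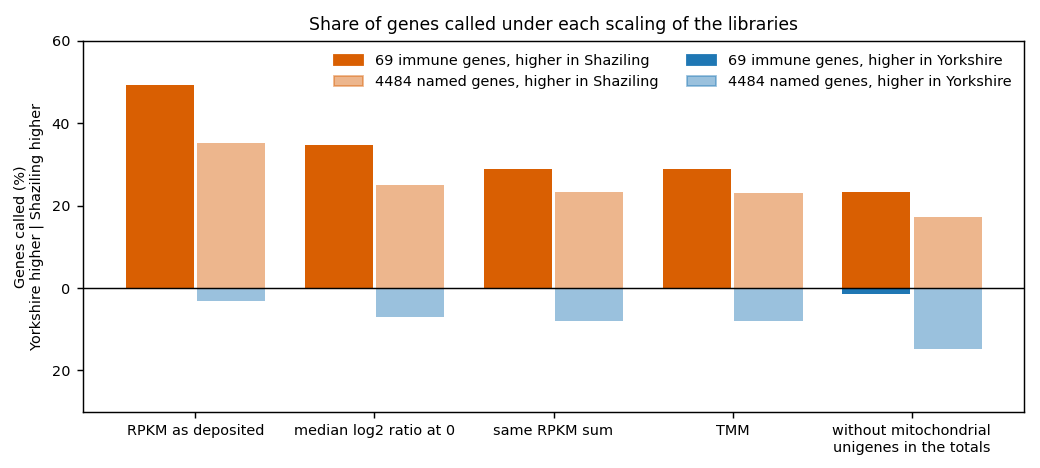
Share of genes called (%, upward for higher in Shaziling, downward for higher in Yorkshire) under 5 scalings of the 2 libraries, for the 69 immune genes (full colour) and the 4484 genes with a symbol (pale). The share of immune genes called higher in Shaziling goes from 49.3% as deposited to 23.2% without the mitochondrial unigenes, and the share of all named genes from 35.3% to 17.2%.

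Most of these genes were present at low levels. Their median RPKM was 0.931 in Yorkshire and 2.18 in Shaziling, against 2.31 and 3.75 for the genes with a symbol. In 14 genes the RPKM was under 1 in both libraries, and in 12 it reached 10 in 1 or both. Reads over both libraries ran from 6 to 6500, and 47 genes had 30 reads or more, of which 26 were called. The 22 genes with fewer reads held 8 of the calls. All genes with a symbol, whatever their reads, gave 35.3%. At a mean RPKM of 1 to 3, 16 of 25 immune genes (64.0%) were called higher in Shaziling, against 41.9% of the genes with a symbol at that level. At a mean RPKM of 10 or more the shares were 37.5% (3 of 8) and 30.6%.

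**Figure D2:**
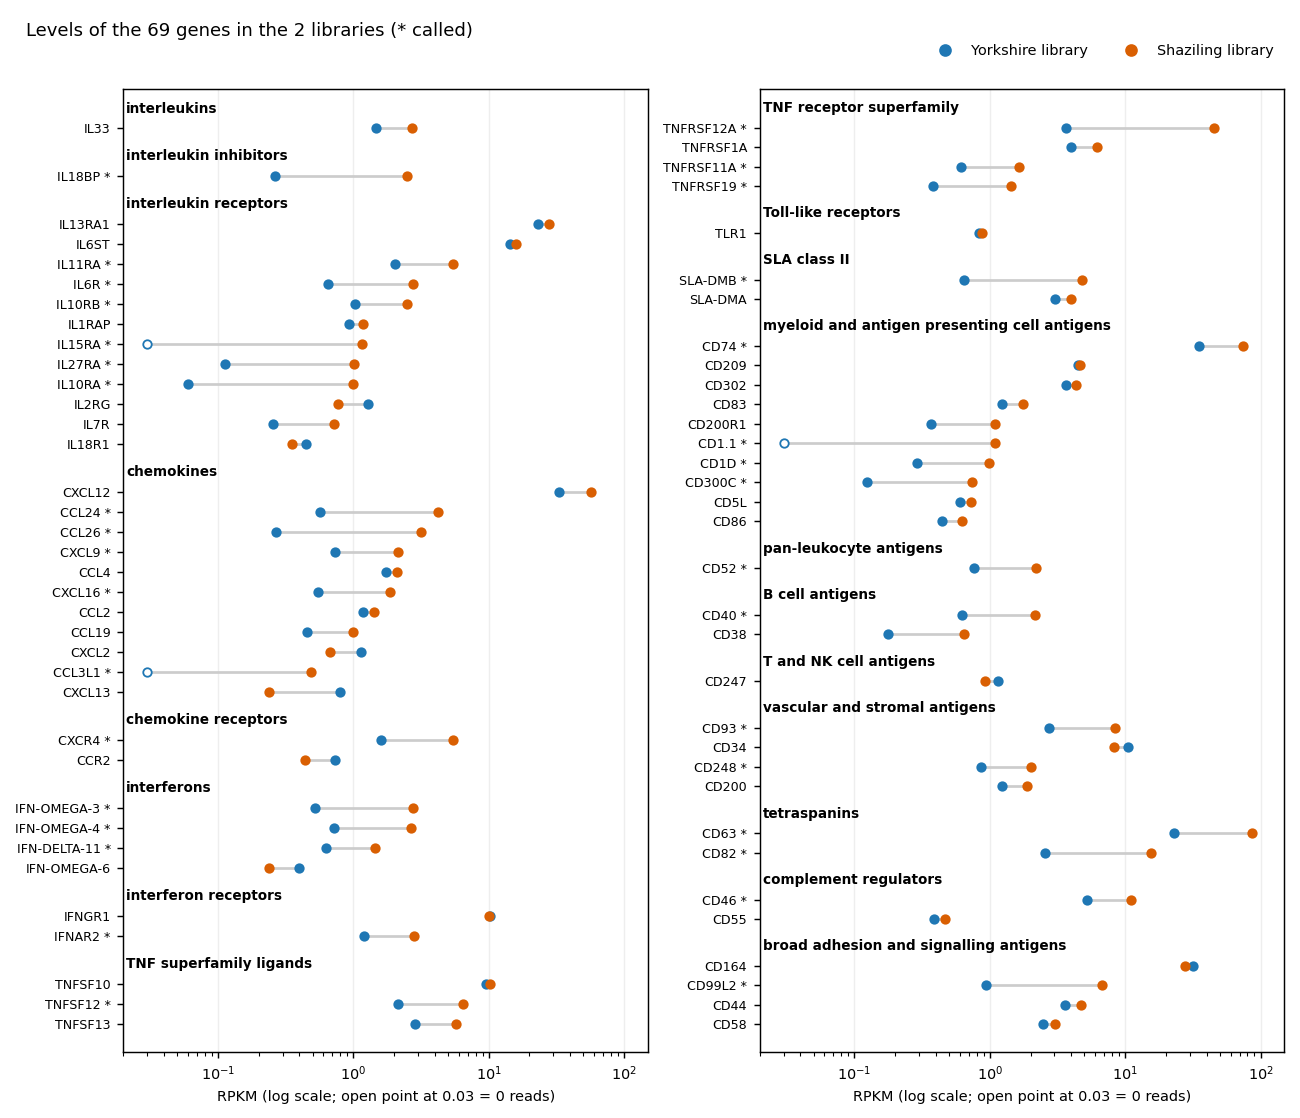
RPKM (log scale) of the 69 genes in the Yorkshire library (blue) and the Shaziling library (orange), ordered by role, with an asterisk on the genes called and open points for 0 reads. CD63, CD74, CXCL12 and TNFRSF12A reach RPKM values of 45.0 or more in Shaziling, while most ligands lie under 10 in both libraries.

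Among the ligands, 9 of 19 were called higher in Shaziling as deposited, where all genes with a symbol gave 35.3%. Those called under every scaling were CCL24, CCL26 and IFN-OMEGA-3. The chemokines gave 5 of 11. CXCL12, which retains progenitor cells and leukocytes through CXCR4, was by far the most abundant chemokine, at RPKM 32.8 in Yorkshire (318 reads) and 56.8 in Shaziling (460 reads). Its ratio of 1.73 (1.5 to 2.01) lay under the threshold, and the gene was called with its longest unigene (19 and 119 reads, ratio 7.51) or with its unigenes summed.

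The eotaxins CCL24 and CCL26, which attract eosinophils through a shared receptor, differed most. CCL24 had RPKM 0.563 in Yorkshire (25 reads) and 4.24 in Shaziling (157 reads), and the ratio was 7.53 (4.92 to 12). CCL26 had RPKM 0.268 (4 reads) and 3.14 (39 reads), a ratio of 11.7 with the wide interval of 4.22 to 45.1. Both were called under every scaling, and in the pig annotation no protein-coding gene lies between them.

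CCL4, which attracts macrophages and lymphocytes, had 26 reads in each library, a ratio of 1.20 (0.669 to 2.15) that fell below 1 under the 4 other scalings. Its neighbour CCL3L1 had 0 reads in Yorkshire and 6 in Shaziling, at least 2.40-fold higher when Yorkshire is set to the floor of 3 reads. CXCL9, a chemokine induced by interferon gamma, was called at 12 and 29 reads (ratio 2.90, 1.43 to 6.24). CXCL16, which is made as a membrane protein and attracts T cells, was called at 11 and 31 reads (3.38, 1.65 to 7.45). CXCL13 and CXCL2 had higher RPKM values in Yorkshire, with 10 and 18 reads over both libraries, and neither was called. CCL4 and CCL3L1 belong to the same chemokine family, and whether reads were assigned to the right family member was not tested.

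Of the interleukins, IL33 was the only gene met among the 35 in the annotation. This alarmin, released from damaged barrier and stromal cells, had RPKM 1.48 in Yorkshire (113 reads) and 2.71 in Shaziling (173 reads), and its ratio of 1.84 (1.44 to 2.35) was under the threshold. IL18BP, the secreted protein that binds and blocks interleukin 18, had RPKM 0.262 (22 reads) and 2.48 (174 reads). The ratio was 9.49 (6.07 to 15.5), and a second IL18BP unigene had 0 and 23 reads, at least 9.20-fold higher. Both unigenes of this inhibitor were thus higher in Shaziling.

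Of 4 interferon unigenes, 3 were called, all from few reads, against 35.3% of all genes with a symbol. IFN-OMEGA-3 had 5 reads in Yorkshire and 22 in Shaziling (RPKM 0.519 and 2.74, ratio 5.28, 1.95 to 17.8). IFN-OMEGA-4 had 8 and 25 reads (RPKM 0.714 and 2.68, ratio 3.75, 1.64 to 9.61). IFN-DELTA-11 had 13 and 25 reads (RPKM 0.629 and 1.45, ratio 2.31, 1.14 to 4.91). The remaining unigene, IFN-OMEGA-6, had 4 and 2 reads. Type I interferons of the pig form large families of near-identical genes, so the assignment of these unigenes to a family member is uncertain.

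In the TNF superfamily, 1 of 3 ligands was called. TNFSF12, known as TWEAK, had RPKM 2.12 in Yorkshire (74 reads) and 6.45 in Shaziling (188 reads), and the ratio was 3.05 (2.32 to 4.04). Its neighbour TNFSF13, a factor for B cell survival known as APRIL, had RPKM 2.86 (156 reads) and 5.73 (260 reads), and its ratio of 2.0 (1.63 to 2.45) lay just under the threshold before rounding. TNFSF10, the death ligand TRAIL, was the most abundant of the 3 at RPKM 9.49 and 10.2, with a ratio of 1.08 (0.987 to 1.18) that fell below 1 under the 4 other scalings.

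Among the receptors, 11 of 21 were called higher in Shaziling as deposited, where all genes with a symbol gave 35.3%. Those called under every scaling were CXCR4, IL10RA, IL15RA, IL27RA, IL6R, TNFRSF12A and TNFRSF19. TNFRSF12A, the receptor of TNFSF12 known as Fn14, had the largest ratio of the 47 immune genes with 30 or more reads. Its RPKM was 3.67 in Yorkshire (77 reads) and 45.0 in Shaziling (788 reads), and the ratio was 12.3 (9.70 to 15.7). The receptor thus differed more than its ligand: the RPKM of TNFRSF12A was 1.73 times that of TNFSF12 in Yorkshire and 6.99 times in Shaziling, a change of 4.03 times (2.77 to 5.84) that does not depend on the library totals.

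The other TNF receptors were less abundant or differed less. TNFRSF1A, the main receptor of TNF, had RPKM 3.97 and 6.17, and its ratio of 1.56 (1.34 to 1.81) fell below 1 without the mitochondrial unigenes. TNFRSF11A, the receptor RANK of osteoclast precursors, was called at 30 and 67 reads (2.68, 1.72 to 4.27). TNFRSF19 was called at 12 and 38 reads (3.80, 1.94 to 7.98).

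Of 12 interleukin receptor genes, 6 were called, against 35.3% of all genes with a symbol. The most abundant were not among them. IL13RA1, a chain of the receptor for interleukins 4 and 13, had RPKM 23.3 in Yorkshire and 28.1 in Shaziling, and IL6ST, the signalling chain gp130 shared by the interleukin 6 family, had 14.4 and 15.8. Their ratios of 1.21 (1.15 to 1.27) and 1.1 (1.05 to 1.16) fell below 1 under the 4 other scalings.

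The chains that bind the ligand and pair with gp130 differed more. IL6R had RPKM 0.654 (58 reads) and 2.76 (204 reads), a ratio of 4.22 (3.14 to 5.75). IL11RA had RPKM 2.02 (122 reads) and 5.41 (272 reads), a ratio of 2.67 (2.15 to 3.34). Relative to IL6ST within a library, IL6R was 3.82 times higher (2.83 to 5.23) and IL11RA 2.42 times higher (1.94 to 3.04) in Shaziling.

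IL10RB, a chain shared by receptors of the interleukin 10 family, was called at 54 and 108 reads (2.40, 1.71 to 3.39). The remaining calls rest on few reads. IL15RA had 0 and 14 reads, at least 5.60-fold higher in Shaziling. IL10RA, the chain that binds interleukin 10, had 1 and 14 reads, a ratio of 16.8 with an interval of 2.55 to 710. IL27RA had 2 and 15 reads, a ratio of 9.0 (2.09 to 81.1). IL2RG, the chain shared by several lymphocyte cytokine receptors, and IL18R1 had higher RPKM values in Yorkshire with 24 and 10 reads over both libraries, and neither was called.

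The 2 interferon receptor genes differed from each other. IFNGR1, the chain that binds interferon gamma, had RPKM 10.2 in Yorkshire (574 reads) and 10.1 in Shaziling (471 reads), and the ratio was 0.984 (0.869 to 1.11). IFNAR2, a chain of the type I interferon receptor, had RPKM 1.20 (92 reads) and 2.80 (179 reads), a ratio of 2.33 (1.80 to 3.03). Relative to IFNGR1, IFNAR2 was 2.37 times higher in Shaziling (1.78 to 3.17). IL10RB is the annotated neighbour of IFNAR2, and their ratios differed by a factor of 1.03 (0.668 to 1.59).

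CXCR4, the receptor of CXCL12, had RPKM 1.59 in Yorkshire (88 reads) and 5.47 in Shaziling (252 reads). Its ratio of 3.43 (2.68 to 4.43) was 1.98 times that of the representative CXCL12 unigene (1.48 to 2.66). It lay below the ratio of 7.51 of the other CXCL12 unigene, so the order of receptor and ligand depends on the unigene taken. CCR2, which draws monocytes into tissue, had 8 and 4 reads and was not called.

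TLR1, which senses bacterial lipopeptides, was the only Toll-like receptor met of 10 in the annotation, and its unigenes disagreed. The representative had 15 Yorkshire and 13 Shaziling reads, a ratio of 1.04 (0.455 to 2.34) that fell below 1 under the 4 other scalings. The longest unigene had 29 and 8 reads, a ratio of 0.331 (0.131 to 0.742), and was called higher in Yorkshire, and the third had 2 and 6 reads. TLR1 has close paralogs, so which gene these unigenes belong to is uncertain.

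**Figure D3:**
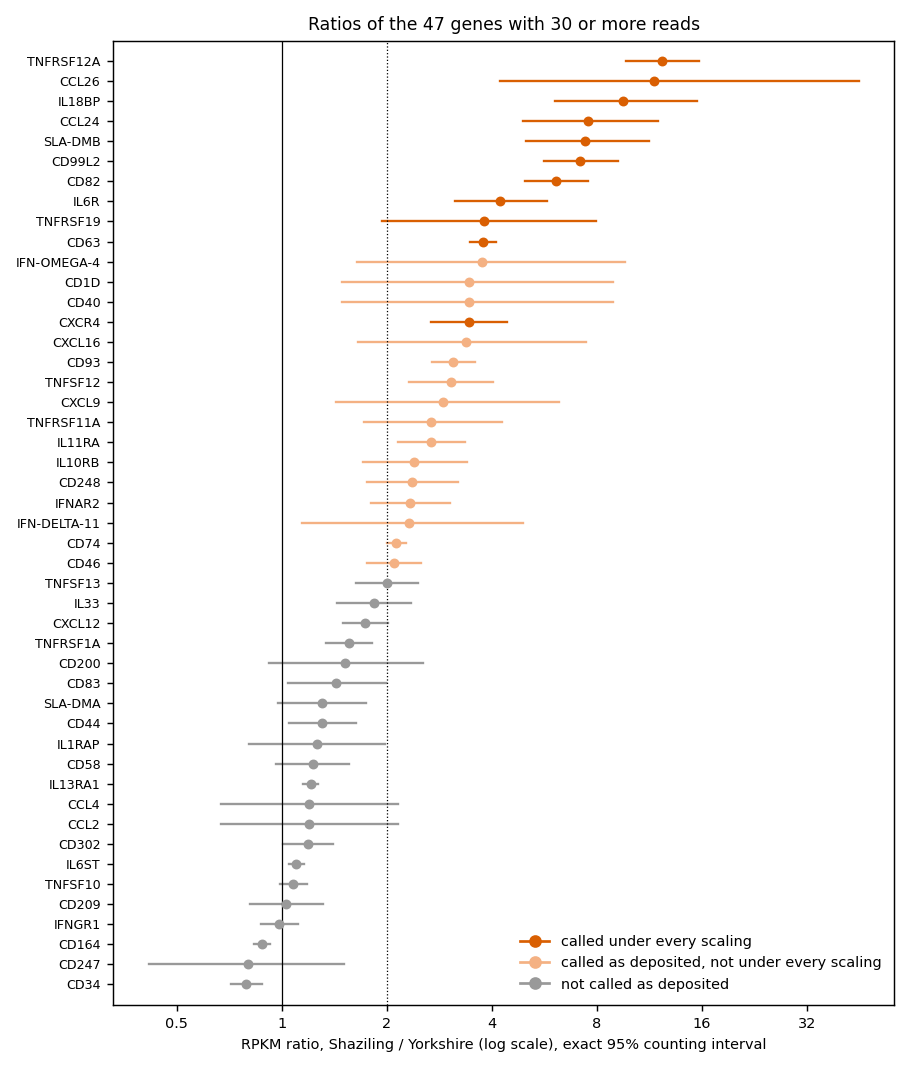
RPKM ratio, Shaziling over Yorkshire (log scale), of the 47 genes with 30 or more reads over both libraries, with exact 95% counting intervals and the threshold of 2 as a dotted line. Genes called under every scaling (dark orange) include TNFRSF12A at 12.3 and CCL26 at 11.7, and CD34 lies lowest at 0.790.

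The antigen presentation genes SLA-DMA and SLA-DMB encode the chains of a dimer that loads peptides onto class II molecules, and they lie next to each other in the annotation. SLA-DMB had RPKM 0.647 in Yorkshire (30 reads) and 4.79 in Shaziling (185 reads), and the ratio was 7.40 (5.01 to 11.3). SLA-DMA had RPKM 3.05 (95 reads) and 3.97 (103 reads), and its ratio of 1.3 (0.974 to 1.74) fell below 1 under 3 of the 4 other scalings. The ratio of the DMB to the DMA level was therefore 0.212 in Yorkshire and 1.21 in Shaziling, a change of 5.69 times (3.46 to 9.48). CD74, the invariant chain that guards the class II groove until DM acts, had RPKM 35.1 (1578 reads) and 74.8 (2806 reads), a ratio of 2.13 (2.0 to 2.27). Its call was lost under all 4 other scalings.

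Of the 26 CD antigens, 12 were called higher in Shaziling as deposited, where all genes with a symbol gave 35.3%. Those called under every scaling were CD1.1, CD63, CD82 and CD99L2. The tetraspanins, which organise membrane microdomains, gave both of 2. CD63, found on late endosomes and exosomes, was the most abundant gene of the whole set in Shaziling, with RPKM 22.9 in Yorkshire (704 reads) and 86.8 in Shaziling (2220 reads) and a ratio of 3.78 (3.47 to 4.12). CD82 had RPKM 2.55 (110 reads) and 15.6 (560 reads), a ratio of 6.11 (4.97 to 7.56).

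Among the adhesion and signalling antigens, CD99L2, which takes part in the passage of leukocytes through vessel walls, had RPKM 0.936 in Yorkshire (80 reads) and 6.72 in Shaziling (479 reads), and the ratio was 7.18 (5.66 to 9.22). It was the only call of 4. CD164, a sialomucin, was abundant in both libraries at RPKM 31.8 (3257 reads) and 27.8 (2379 reads), a ratio of 0.876 (0.831 to 0.924). CD44, the hyaluronan receptor, had RPKM 3.61 and 4.71, and its ratio of 1.3 (1.05 to 1.63) fell below 1 under 3 of the 4 other scalings.

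The vascular and stromal antigens split. CD93, an endothelial and myeloid lectin-like receptor, had RPKM 2.74 in Yorkshire (273 reads) and 8.48 in Shaziling (705 reads), and the ratio was 3.10 (2.69 to 3.57). CD34, carried by endothelium and by progenitor cells, had RPKM 10.5 (947 reads) and 8.30 (624 reads), a ratio of 0.790 (0.713 to 0.875). It was the only immune gene called higher in Yorkshire under any of the scalings, without the mitochondrial unigenes. The CD93 level was 0.261 times the CD34 level in Yorkshire and 1.02 times in Shaziling, a change of 3.92 times (3.29 to 4.68). CD248, an antigen of pericytes and fibroblasts, was called at 70 and 138 reads (2.36, 1.76 to 3.20). CD200, a ligand that restrains myeloid cells, had 30 and 38 reads, and its ratio of 1.52 (0.917 to 2.54) fell below 1 without the mitochondrial unigenes.

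Antigens of myeloid and antigen presenting cells gave 4 calls of 10, CD74 among them, against 35.3% of all genes with a symbol. The others, CD1.1, CD1D and CD300C, had at most 8 reads in Yorkshire and 10 to 23 in Shaziling, and CD1 genes are close paralogs of each other. The lectins CD209 and CD302 had RPKM 4.48 and 4.63, and 3.65 and 4.34, with ratios of 1.03 (0.810 to 1.31) and 1.19 (1.01 to 1.40) that fell below 1 under the 4 other scalings. Of the complement regulators, CD46 had RPKM 5.23 (198 reads) and 11.0 (346 reads), a ratio of 2.10 (1.75 to 2.51), and its call was lost under all 4 other scalings. CD55 had 3 reads in each library, and its ratio of 1.20 fell below 1 under the 4 other scalings.

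Lymphocyte antigens were scarce. CD247, the zeta chain of the T cell receptor, had 27 reads in Yorkshire and 18 in Shaziling (0.80, 0.415 to 1.51). CD40, the costimulatory receptor of B cells and other antigen presenting cells, was called at 8 and 23 reads (3.45, 1.49 to 8.92), and its second unigene, at 4 and 26 reads, was called as well. CD38, an ectoenzyme, had 2 and 6 reads. CD52, a small glycoprotein of leukocytes, was called at 8 and 19 reads (2.85, 1.19 to 7.52).

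For 10 of the genes there were other unigenes, 11 in all. Of these, 9 lay on the same side as the representative, and 2 on the other, 1 each of CD86 and TLR1. The second CXCL12 unigene matched a protein of 116 residues where the first matched one of 119. The interval of its ratio was 4.61 to 12.9, so the 2 CXCL12 unigenes differed in size of ratio but not in side. Of the 69 representatives, 28 were shorter than the coding length of their match, and 12 of these were called, against 22 of the 41 that were as long or longer. The library kit does not mark strand, so reads from antisense transcripts cannot be told apart.

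Genes that act with this set were taken from 4 lists, of which 37 of 77 genes were met. Of these, 17 were called higher in Shaziling and 1 higher in Yorkshire, where all genes with a symbol gave 35.3% and 3.17%. Under the other scalings the counts were 4 to 12 higher in Shaziling and 2 to 6 higher in Yorkshire. All genes with a symbol then gave 17.2% to 25.1% and 6.94% to 14.9%. In JAK-STAT signalling, which carries the signal of many cytokine receptors, 4 of 6 were called higher in Shaziling, against 0 to 2 under the other scalings. JAK1, the most abundant, had RPKM 24.7 and 34.6 (1.40, 1.34 to 1.46). In NF-kB and Toll-like receptor signalling 5 of 9 were called higher, against 2 or 3 under the other scalings. NFKBIA, the inhibitor that NF-kB induces, had RPKM 10.8 and 22.9 (2.13, 1.92 to 2.36), and its call was lost under all 4 other scalings.

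Interferon regulatory factors and interferon-induced genes differed from the other lists in their median, which was -0.28 on the log2(RPKM + 1) scale against 0.47 for all genes with a symbol. Of 11 genes, 3 were called higher in Shaziling and 1 in Yorkshire, where all genes with a symbol gave 35.3% and 3.17%. The 3 were IRF8 (4 and 34 reads, ratio 10.2, 3.64 to 39.5), USP18 (2.87, 2.07 to 4.01) and IRF1 (2.63, 1.75 to 4.02). IRF2 and IRF9, with ratios of 1.40 and 1.63, were not called. OAS2, an antiviral enzyme that senses double-stranded RNA, was called higher in Yorkshire. It had RPKM 15.1 in Yorkshire (706 reads) and 7.25 in Shaziling (283 reads), a ratio of 0.481 (0.417 to 0.553). The OAS2 call was lost with the longest unigene or with unigenes summed. MX1, IFIT1, IFIT3, IFIH1 and EIF2AK2, singled out after their values were seen, had ratios of 0.638 to 0.767 and were not called as deposited. Without the mitochondrial unigenes, these and OAS2 made up 6 genes called higher in Yorkshire, against 1 in Shaziling. All genes with a symbol then gave 14.9% higher in Yorkshire and 17.2% higher in Shaziling. EIF2AK2 was also called higher in Yorkshire under each of the other scalings.

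In antigen processing and presentation, 5 of 11 were called higher in Shaziling, against 1 to 4 under the other scalings. B2M, the light chain of class I molecules, had RPKM 48.3 and 111 (2.30, 2.22 to 2.38), and its call was lost under all 4 other scalings. CALR, a chaperone of class I assembly, had RPKM 56.8 and 53.0 (0.933, 0.885 to 0.984).

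Markers of the cells that could carry these genes also differed between the libraries. Among all genes with a symbol, 35.3% were called higher in Shaziling and 3.17% higher in Yorkshire as deposited. Under the other scalings these shares were 17.2% to 25.1% and 6.94% to 14.9%. They stand beside every marker list below, and no list was tested against them. In whole muscle, fewer cells of a type and less RNA per cell cannot be told apart. Of 6 macrophage markers met of 8, 3 were called higher in Shaziling, and their summed RPKM was 19.8 in Yorkshire and 48.1 in Shaziling, with C1QB at 9.90 and 16.6 and C1QC at 4.94 and 15.7. The macrophage receptors MRC1 (1.61 and 1.27) and MSR1 (1.05 and 0.830) lay on the other side, and without the mitochondrial unigenes both were called higher in Yorkshire, with 2 markers called higher in Shaziling. Of 4 endothelial markers met of 9, 2 were called, also under each of the other scalings, with sums of 38.3 and 70.7. The 2 were VWF (RPKM 0.521 and 10.5, ratio 20.2, 16.9 to 24.4) and ESAM (3.17 and 12.2, ratio 3.85, 3.28 to 4.53). The most abundant, PECAM1, had a ratio of 1.36 (1.3 to 1.42), and neither it nor KDR was called. Of 4 erythroid markers met of 7, 3 were called, against 2 under the other scalings, with sums of 19.7 and 213, nearly all of it HBB. The part of blood, macrophages or vessels in the immune gene ratios was not tested.

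Leukocyte markers gave 1 call of 3 met of 8 (sums 7.78 and 8.16), and without the mitochondrial unigenes FCER1G alone was called, higher in Yorkshire. T cells were represented by CD247 alone of 8 markers and B cells by JCHAIN alone of 7 (RPKM 2.22 and 3.16, not called). NK cell markers gave 1 call of 3 met of 7 (sums 2.19 and 4.15), a call lost under the other scalings, and neutrophil markers 1 of 2 met of 6 (sums 0.453 and 2.73), S100A9 being at 0 reads in Yorkshire. None of 4 fibroblast markers met of 8 was called (sums 721 and 685) as deposited, nor was the pericyte marker RGS5 (1 met of 6, RPKM 38.2 and 31.9). Under the 4 other scalings the fibroblast marker LUM (RPKM 91.0 and 45.9) was called higher in Yorkshire, and without the mitochondrial unigenes DCN was as well. The other fibroblast markers, COL3A1 (RPKM 364 and 378) and COL1A2 (105 and 129), had ratios of 1.04 and 1.24 as deposited. Neither was called under any scaling. Adipocyte markers gave 1 call of 2 met of 6 (sums 27.5 and 52.1), lost without the mitochondrial unigenes. The fibre markers of the labelled tissue were abundant, and 4 of 9 were met, of which 3 were called higher in Shaziling (sums 5499 and 13326), against 1 under each of the other scalings. The satellite cell marker MYF5 was the only one met of 3 and was called (RPKM 0.605 and 2.21).

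**Figure D4:**
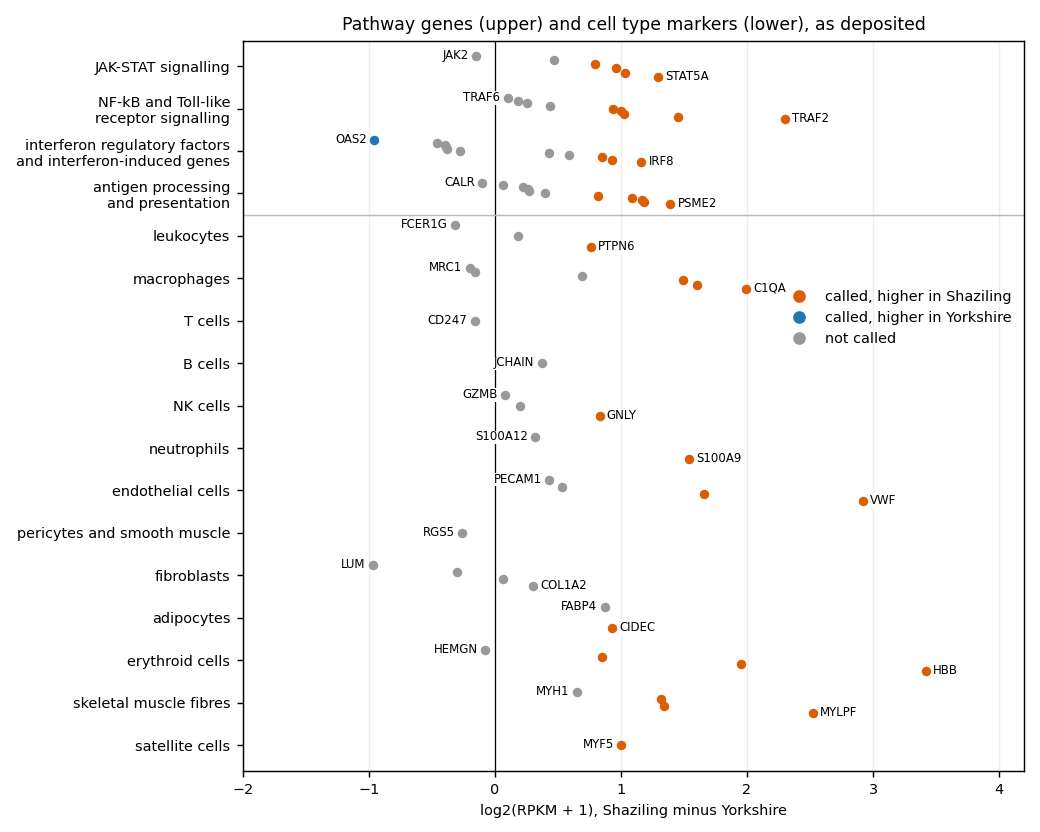
Difference in log2(RPKM + 1), Shaziling minus Yorkshire, of the pathway genes (upper 4 rows) and the cell type markers (lower rows) in the values as deposited, coloured by call, with the lowest and highest gene of a list named. OAS2, at -0.96, is the gene called higher in Yorkshire, and HBB lies highest at 3.42.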

How the data were processed

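The authors sequenced polyA RNA of LM on an Illumina instrument, assembled the reads of both breeds de novo and matched the unigenes to the nr protein database. The deposited read counts are whole numbers per unigene without normalization, and no program is named for counting alone. The authors computed the RPKM values they deposited with Qualimap, relative to unigene length and library size. The submitters' processing notes also name TopHat2 and a mouse genome build, with no role given. The library totals behind them were recovered from counts, lengths and RPKM. Groups follow the sample titles. Of the columns holding sample values, 0 were left unused.

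Symbols came from the RefSeq protein accessions of the nr matches and the pig assembly Sscrofa11.1, used only for names and gene neighbours, and 5698 unigenes received 1 of 4484 symbols. The members and gene lists were chosen with earlier results of these data known. Named by rule were the 3 most abundant members of a role, those among the 8 largest ratios with 30 reads or more, and every SLA and TLR member. For the pathway and marker lists, naming the 2 most abundant genes was planned but followed only in part. Other genes named, and all pairs whose ratios are compared, were chosen after their values were seen. CD1.1 and CD5L were put among the myeloid antigens after the data were seen.

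The exact binomial test on counts doubled the smaller tail. It was tested on simulated reads with counting error only, without spread between animals or a shift between the libraries. The simulation therefore cannot speak to either. Folds against 0 reads used a floor of 3 reads. Log2 values used a pseudocount of 1. Python 3.11.15, scipy 1.17.1, pandas 2.3.3 and, for TMM, edgeR 4.0.16 were used. Alternatives were 4 other scalings, the longest or summed unigenes of a gene, other thresholds, an RPKM minimum of 1 and other pseudocounts.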

Additional observations from a re-analysis of the deposited data

How the results depend on the processing

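With 1 library per breed no spread between animals could be set against any ratio, and for genes with few reads depth leaves wide intervals. The count of immune genes called higher in Shaziling, 34 as deposited, was 20 with the same RPKM sum, 20 with TMM, 16 without the mitochondrial unigenes and 13 at a ratio of 4. The count higher in Yorkshire, 0 as deposited, was 1 without the mitochondrial unigenes (CD34) and 1 with the longest unigene (TLR1). Their median log2 difference, 0.62 as deposited, was 0.41 with the same RPKM sum, 0.45 with the median at 0, 0.45 with TMM, 0.32 without the mitochondrial unigenes, 0.79 at an RPKM minimum of 1, 1.09 at a pseudocount of 0.1 and 0.88 at 0.5. Pathway genes called higher in Shaziling, 17 as deposited, were 9 with the same RPKM sum, 9 with TMM, 4 without the mitochondrial unigenes and 3 at a ratio of 4. Those higher in Yorkshire, 1 as deposited, were 2 with the same RPKM sum, the median at 0, TMM or a ratio of 1.5, 6 without the mitochondrial unigenes, and 0 at a ratio of 4, with the longest unigene or with unigenes summed.

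Of the 43 genes named by the rule, the log2 differences that turned negative with the same RPKM sum were SLA-DMA -0.04, TNFSF10 -0.29, TLR1 -0.16, CD44 -0.04, CCL4 -0.11, CD55 -0.05, IL13RA1 -0.15, IL6ST -0.27, CD209 -0.31 and CD302 -0.14. With the median at 0 they were TNFSF10 -0.22, TLR1 -0.13, CCL4 -0.06, CD55 -0.02, IL13RA1 -0.08, IL6ST -0.20, CD209 -0.25 and CD302 -0.08. With TMM they were SLA-DMA -0.05, TNFSF10 -0.30, TLR1 -0.18, CD44 -0.05, CCL4 -0.12, CD55 -0.05, IL13RA1 -0.16, IL6ST -0.28, CD209 -0.32 and CD302 -0.15. Without the mitochondrial unigenes they were SLA-DMA -0.28, TNFRSF1A -0.07, TNFSF10 -0.57, TLR1 -0.37, CD44 -0.29, CCL4 -0.33, CD55 -0.17, IL13RA1 -0.43, IL6ST -0.55, CD209 -0.58, CD302 -0.40 and CD200 -0.08. TLR1 was at -0.59 with the longest unigene and -0.09 with unigenes summed. Under the 4 scalings these turns follow from the constant shift of all ratios, and for TLR1 the cause was not tested. No paired analysis was possible because each breed has 1 library.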
